A study of Mus musculus with 9 samples.

Results

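The MYC, MAX and MXD network was described here as 10 genes chosen by name, Myc, Mycn, Mycl, Max, Mxd1, Mxd3, Mxd4, Mnt, Mga and Mlx, out of 40213 gene symbols. All 10 members had enough counts to be tested, as did 16562 symbols in all. RNA-seq was done on total RNA of mouse embryonic stem (ES) cells in LIF medium, 9 libraries in 3 groups of 3. EWS-OCT4 cells are labelled a stable line with OCT4 fused to EWS, an RNA-binding protein, and OCT4 cells a stable line with unfused OCT4. The labels name both Niwa lines, and both were treated with doxycycline (1 µg/ml) against their endogenous OCT4, the Pou5f1 product that maintains pluripotency. J1 cells, a common ES cell line, were the control, and the labels do not state whether they were treated too. Each group has 1 line name, and the labels do not say whether the numbers in the titles mark separate lines, cultures or libraries. Every p-value here thus refers to the spread between libraries, which may be technical. Against J1, the named line and the introduced sequence differ together, and doxycycline may too, so their parts cannot be told apart. Between the stable lines, each introduced sequence comes with 1 line name, so differences of line and of sequence cannot be told apart either.

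Proteins of this network are basic helix-loop-helix leucine zipper factors that bind E-box DNA as dimers. MAX is the shared partner: with MYC, MYCN or MYCL it activates genes of growth and biosynthesis, and with MXD proteins, MNT or MGA it recruits corepressors to the same kind of site. MLX heads a parallel branch with the glucose-responsive Mondo proteins. In mouse ES cells Myc and Mycn are known to sustain self-renewal with overlapping roles, and MGA works with a variant Polycomb complex, PRC1.6, that silences germline genes.

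The libraries held 21149358 to 24786305 counts each. Chi-square per degree of freedom between libraries of 1 group was 3.28 to 31.4, above the 1 that sampling alone gives. Pou5f1, the gene lowered by design, averaged 26.8 CPM in EWS-OCT4 cells and 165 CPM in OCT4 cells, against 569 CPM in J1 (CPM being counts scaled to a common library size with TMM factors). Whether these counts include the introduced sequences is not given in the sources used here. All 9 pluripotent stem cell markers averaged over 5 CPM in each group, and summed to 3878 to 3953 CPM in EWS-OCT4, 3757 to 3839 CPM in OCT4 and 4726 to 5090 CPM in J1 libraries. These sums include Pou5f1, and individual markers went both ways. In EWS-OCT4, OCT4 and J1 cells, Nanog averaged 481, 509 and 261 CPM and Zfp42 averaged 758, 429 and 1425 CPM. Of 8 trophectoderm markers, 3 averaged over 5 CPM in EWS-OCT4 cells, 7 in OCT4 cells and 3 in J1, with summed levels of 235 to 250, 466 to 499 and 133 to 155 CPM in that order of groups. Primitive endoderm markers summed to 10.3 to 11.5, 21.7 to 24.2 and 25.8 to 31.4 CPM, mesendoderm markers to at most 4.71 CPM in any library, and neuroectoderm markers to 72.9 to 103 CPM. Fibroblast markers summed to 23.0 to 26.3 CPM in EWS-OCT4, 34.0 to 40.0 CPM in OCT4 and 68.5 to 87.5 CPM in J1 libraries, of which Lum had no count in the OCT4 and J1 libraries, and Dcn had none in the EWS-OCT4 and J1 libraries. In such bulk libraries, fewer cells of a type and less RNA per cell cannot be told apart, and the part of other cell types in the results below was not tested.

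The activating genes Myc and Mycn differed between all 3 groups, in different orders. Myc was highest in EWS-OCT4 cells, at 45.0, 45.3 and 45.0 CPM, against 6.97, 5.42 and 7.27 CPM in OCT4 cells and 18.4, 19.1 and 16.9 CPM in J1. No 2 groups overlapped, and the 3 EWS-OCT4 libraries lay within 1 CPM of each other. Myc was thus 6.86-fold higher in EWS-OCT4 cells than in OCT4 cells, a log2 fold change of 2.78 (SE 0.102, adjusted p = 2.71e-13, quasi-likelihood test of edgeR, adjusted by Benjamini-Hochberg over all tested genes, as for every adjusted p here). It was 2.48-fold higher in EWS-OCT4 cells than in J1 (log2 fold change 1.31, SE 0.0906, adjusted p = 1.44e-09), and it was lower in OCT4 cells than in J1, at a log2 fold change of -1.47 (SE 0.105, adjusted p = 1.16e-09).

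Mycn, the MYC gene with the highest CPM per kilobase in all 3 groups, had another order. It stood at 116, 123 and 116 CPM in EWS-OCT4 cells and 55.2, 51.6 and 51.4 CPM in OCT4 cells, against 170, 159 and 165 CPM in J1. J1 was highest and OCT4 cells lowest, with no overlap. Mycn was 2.24-fold higher in EWS-OCT4 cells than in OCT4 cells (log2 fold change 1.16, SE 0.0655, adjusted p = 6.26e-11). Against J1 it was lower in both lines, with log2 fold changes of -0.48 in EWS-OCT4 cells (SE 0.0634, adjusted p = 4.22e-06) and -1.64 in OCT4 cells (SE 0.0658, adjusted p = 5.65e-13). These 2 comparisons share the J1 libraries.

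Mycl, a further MYC gene, had smaller differences than Myc and Mycn. It had 17.7, 18.0 and 18.4 CPM in EWS-OCT4 cells, 11.7, 12.2 and 11.9 CPM in OCT4 cells and 15.9, 15.3 and 17.5 CPM in J1. OCT4 cells were the low group: the log2 fold change was 0.60 for EWS-OCT4 cells over OCT4 cells (SE 0.089, adjusted p = 1.29e-05) and -0.45 for OCT4 cells over J1 (SE 0.0894, adjusted p = 0.00027). The EWS-OCT4 libraries all lay above the J1 libraries, yet the difference did not pass the test (log2 fold change 0.15, 95% interval -0.03 to 0.33, adjusted p = 0.136).

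**Figure D1:**
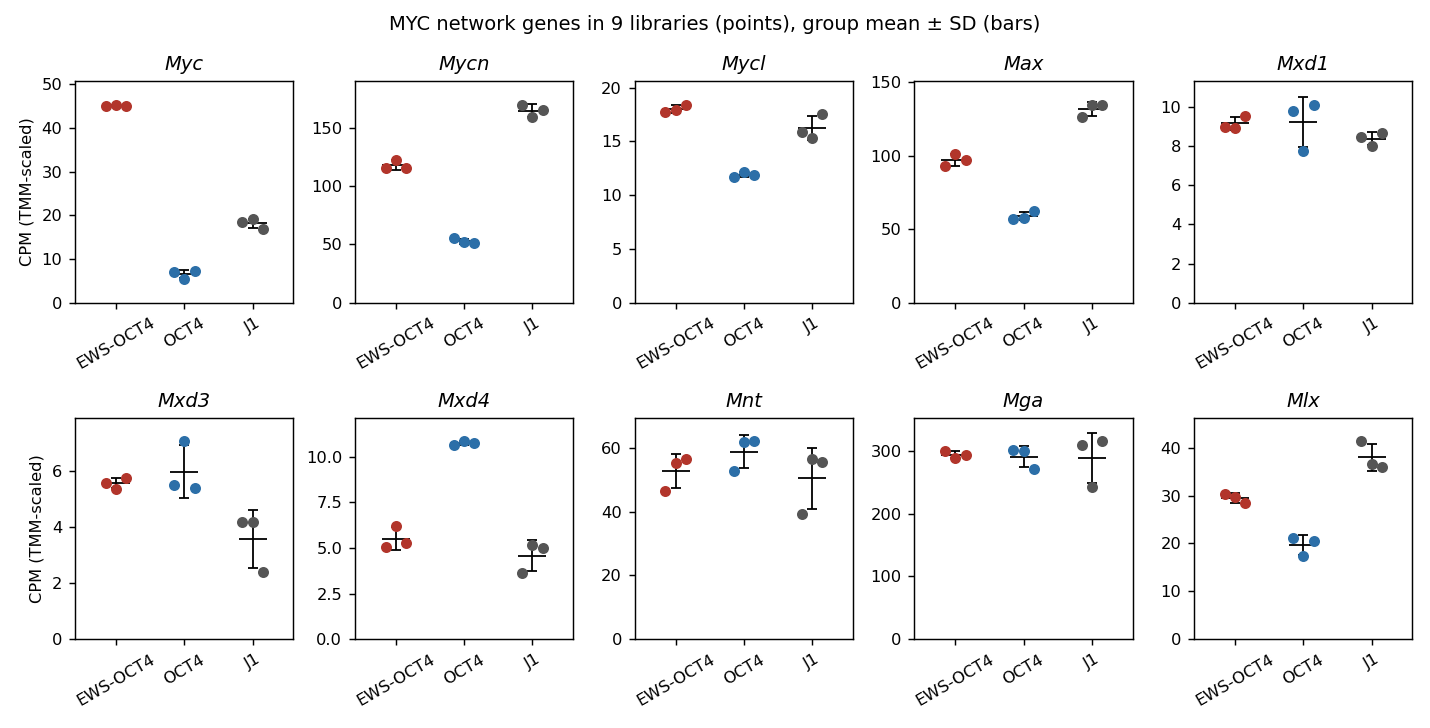
CPM of each network gene (y axis, linear, from 0, TMM-scaled) in the EWS-OCT4, OCT4 and J1 libraries; points are libraries, bars the group mean ± SD of 3 libraries. Myc sits near 45.0 CPM in EWS-OCT4 cells, whereas Mycn, Max and Mlx are lowest in OCT4 cells and highest in J1, and Mga has group means of 289 to 294 CPM.

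Levels of different genes can be compared only per transcript length. On the scale of CPM per kilobase of merged exons, Myc, Mycn and Mycl together came to 56.9 ± 1.27 in EWS-OCT4 cells and 21.4 ± 0.781 in OCT4 cells, against 60.6 ± 1.56 in J1 (SD, n = 3). The sum in EWS-OCT4 libraries, 56.1 to 58.3, lay just below that in J1 libraries, 59.1 to 62.2, while its makeup differed. Mycn made up 63.0% ± 0.73 of the sum in EWS-OCT4 cells, 74.9% ± 1.22 in OCT4 cells and 82.4% ± 0.603 in J1. Myc made up 29.2% ± 0.528 in EWS-OCT4 cells, 11.3% ± 1.5 in OCT4 cells and 11.01% ± 0.829 in J1, and the last 2 groups overlapped. Mycl took 7.85% ± 0.243, 13.8% ± 0.769 and 6.63% ± 0.458 in the same order. Dividing by the longest coding length instead put Myc at 24.6%, 8.96% and 9.08%, Mycn at 63.3%, 70.9% and 80.9%, and Mycl at 12.1%, 20.1% and 10.02%. Myc then still had its highest share in EWS-OCT4 cells, but the Mycl shares were over 1.5 times as large in EWS-OCT4 cells and J1. The mean share of Mycl then exceeded that of Myc in J1, though not in J1 replicate 2 (9.73% for Mycl, 9.84% for Myc).

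**Figure D2:**
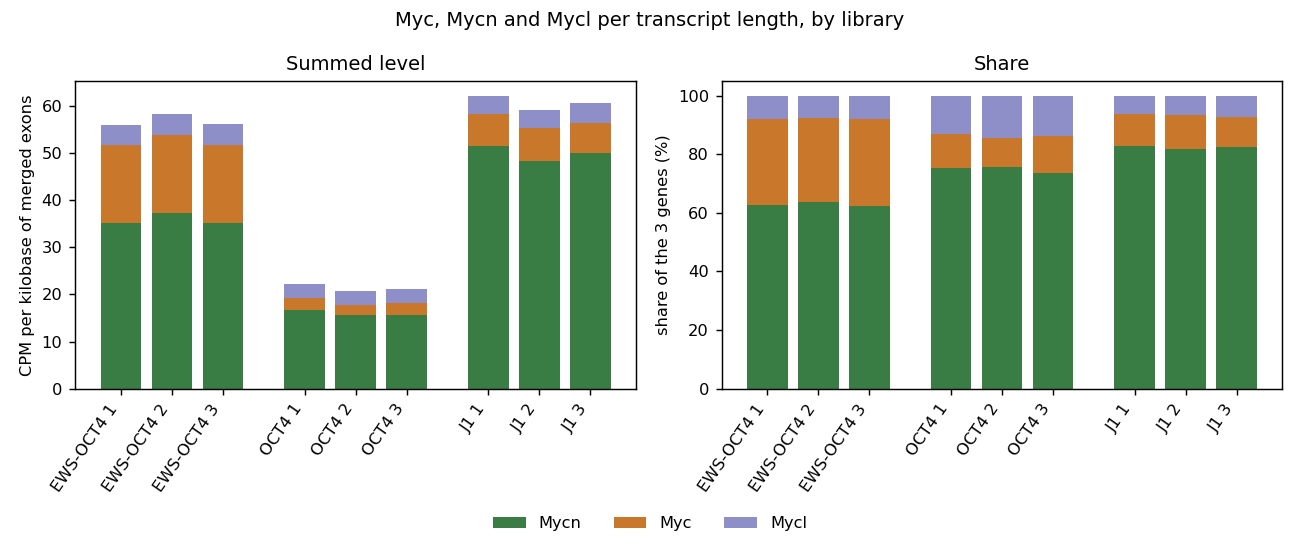
Myc, Mycn and Mycl in each library, as stacked CPM per kilobase of merged exons (left) and as shares of their sum in percent (right). The summed bars reach 56.1 to 58.3 in the EWS-OCT4 libraries, 20.7 to 22.2 in the OCT4 libraries and 59.1 to 62.2 in the J1 libraries, with the widest Myc band in EWS-OCT4 cells.

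Max, the obligate partner, followed the order of Mycn. It had 93.0, 101 and 97.3 CPM in EWS-OCT4 cells and 57.1, 57.7 and 62.4 CPM in OCT4 cells, against 127, 135 and 135 CPM in J1. No groups overlapped. Its log2 fold change was 0.72 for EWS-OCT4 cells over OCT4 cells (SE 0.0667, adjusted p = 4.29e-08). Over J1 it was -0.44 for EWS-OCT4 cells (SE 0.0653, adjusted p = 1.54e-05) and -1.16 for OCT4 cells (SE 0.0667, adjusted p = 6.25e-11). Per kilobase, the 3 MYC genes came to 2.11 ± 0.0535 times Max in EWS-OCT4 cells and 1.30 ± 0.0895 times Max in OCT4 cells, against 1.66 ± 0.0979 times in J1 (SD, n = 3). The ratio did not overlap between any of the groups, at 2.07 to 2.17, 1.22 to 1.40 and 1.58 to 1.77. Its size depends on the length used, since Max has a merged exon length of 3598 bases, a longest transcript of 1942 and a longest coding length of 480. It was 1.37 in EWS-OCT4 cells, 0.854 in OCT4 cells and 1.09 in J1 with longest transcripts, and 0.665, 0.437 and 0.535 with coding lengths, an alternative chosen after seeing the data. The groups did not overlap with either, but whether the MYC genes exceed Max cannot be read from these values.

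MXD repressors compete with MYC proteins for MAX. Among the 3 MXD members, Mxd4 had its highest level in OCT4 cells. It had 5.05, 6.23 and 5.27 CPM in EWS-OCT4 cells, 10.7, 10.8 and 10.8 CPM in OCT4 cells and 3.62, 5.15 and 4.98 CPM in J1. The OCT4 libraries lay above all others. Its log2 fold change was -0.96 for EWS-OCT4 cells over OCT4 cells (SE 0.139, adjusted p = 9.24e-06) and 1.23 for OCT4 cells over J1 (SE 0.141, adjusted p = 5.05e-07). Between EWS-OCT4 cells and J1 the groups overlapped (log2 fold change 0.27, 95% interval -0.04 to 0.59, adjusted p = 0.123). Mxi1 is an MXD family gene that is not among the 10 members. Its levels were 39.1, 37.6 and 42.2 CPM in EWS-OCT4 cells and 62.9, 63.0 and 65.5 CPM in OCT4 cells. Mxi1 had 56.1, 52.5 and 60.5 CPM in J1. It was lowest in EWS-OCT4 cells, with log2 fold changes of -0.69 over OCT4 cells (SE 0.0734, adjusted p = 2.62e-07) and -0.51 over J1 (SE 0.0735, adjusted p = 1.23e-05), and 0.18 for OCT4 cells over J1 (SE 0.0721, adjusted p = 0.0365).

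Mxd3, linked to proliferating cells, had 5.58, 5.37 and 5.73 CPM in EWS-OCT4 cells and 5.49, 7.05 and 5.38 CPM in OCT4 cells, against 4.18, 4.19 and 2.40 CPM in J1. Both lines lay above J1, by 0.62 in EWS-OCT4 cells (log2, SE 0.187, adjusted p = 0.00819) and by 0.72 in OCT4 cells (SE 0.186, adjusted p = 0.00231), while the lines themselves overlapped. J1 replicate 3 was the lowest library, and without it the log2 fold changes were 0.41 (adjusted p = 0.0418) and 0.49 (adjusted p = 0.0153). Mxd1, induced as many cell types mature, lay between 7.77 and 10.1 CPM in all 9 libraries and passed in no comparison, with adjusted p of at least 0.313, although the EWS-OCT4 libraries all lay above the J1 libraries.

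Mnt and Mga, the larger MAX-binding repressors, did not pass the test in any comparison. Mnt ran from 46.5 to 56.5 CPM in EWS-OCT4 cells, from 52.7 to 62.0 CPM in OCT4 cells and from 39.3 to 56.3 CPM in J1. Its log2 fold changes were -0.16, 0.07 and 0.22 in EWS-OCT4 over OCT4, EWS-OCT4 over J1 and OCT4 over J1, and the last passed only without a low-count filter (adjusted p = 0.0224) or with the replicate number as a block (adjusted p = 0.00659), of 19 alternatives. Mga, with the highest CPM of the network and the longest transcript, averaged 294 ± 5.95 CPM in EWS-OCT4 cells, 291 ± 17.1 CPM in OCT4 cells and 289 ± 39.7 CPM in J1 (SD, n = 3). The 95% intervals of its log2 fold changes lay within -0.17 and 0.21 in all 3 comparisons.

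Mlx, the partner of the Mondo proteins, took the same order as Mycn and Max. It had 30.4, 29.7 and 28.4 CPM in EWS-OCT4 cells and 21.2, 17.4 and 20.4 CPM in OCT4 cells, against 41.3, 36.5 and 36.1 CPM in J1, with no overlap. The log2 fold change was 0.58 for EWS-OCT4 cells over OCT4 cells (SE 0.0895, adjusted p = 1.87e-05), -0.37 for EWS-OCT4 cells over J1 (SE 0.0859, adjusted p = 0.00133) and -0.95 for OCT4 cells over J1 (SE 0.0884, adjusted p = 3.75e-08). In GENCODE release M21, 19.3% of the exon bases of Mlx are shared with Psmc3ip on the opposite strand. Psmc3ip averaged 36.0 CPM in EWS-OCT4 cells, 23.8 CPM in OCT4 cells and 19.4 CPM in J1. The strand setting of the counting is not given in the sources used here, so reads of the shared bases cannot be told apart. The shares for Mxd3 (4.43%, with Prelid1) and Mxd4 (6.06%, with the antisense gene Gm42846, not analysed here) were smaller.

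In all, 5 of the 10 members were higher and 1 lower in EWS-OCT4 cells than in OCT4 cells, where 31.9% of all tested genes were higher and 34.6% lower. EWS-OCT4 cells had 2 members higher and 3 lower than J1, where 30.3% of all tested genes were higher and 31.6% lower. OCT4 cells had 2 higher and 5 lower than J1, where 34.3% were higher and 32.7% lower. Members called in either direction numbered 6, 5 and 7 of 10, beside 66.5%, 61.9% and 67.0% of all tested genes, shares near that background. CPM values of the groups did not overlap for 5 members above and 1 below in EWS-OCT4 over OCT4, beside 35.3% and 37.6% of all tested genes (72.9% in either direction), for 4 above and 3 below in EWS-OCT4 over J1, beside 32.6% and 33.1% (65.7%), and for 2 above and 5 below in OCT4 over J1, beside 35.1% and 33.3% (68.4%). The median log2 fold change of the members was 0.30, 0.10 and -0.22, beside -0.04, 0.00 and 0.01 over all tested genes.

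Some of these differences stand beside shifts of whole chromosomes. Mycn and Max lie on mouse chromosome 12, and Mnt and Mlx on chromosome 11. The median tested gene of chromosome 12 had a log2 fold change of -0.31 in EWS-OCT4 cells and -0.19 in OCT4 cells over J1, and that of chromosome 11 had -0.51 and -0.47. Set against its chromosome's median, the EWS-OCT4 over J1 difference was -0.17 for Mycn, -0.13 for Max and 0.15 for Mlx, beside full differences of -0.48, -0.44 and -0.37. The OCT4 over J1 differences remained at -1.45 for Mycn, -0.97 for Max and -0.47 for Mlx. Mnt, not called against J1, lay 0.58 and 0.70 above its chromosome's median. Between the 2 stable lines the medians of these chromosomes differed by only -0.05 and -0.06, and Myc, on chromosome 15, had a chromosome median between -0.03 and 0.03 in every comparison. The part of the chromosome-wide shifts in the members' differences was not tested.

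**Figure D3:**
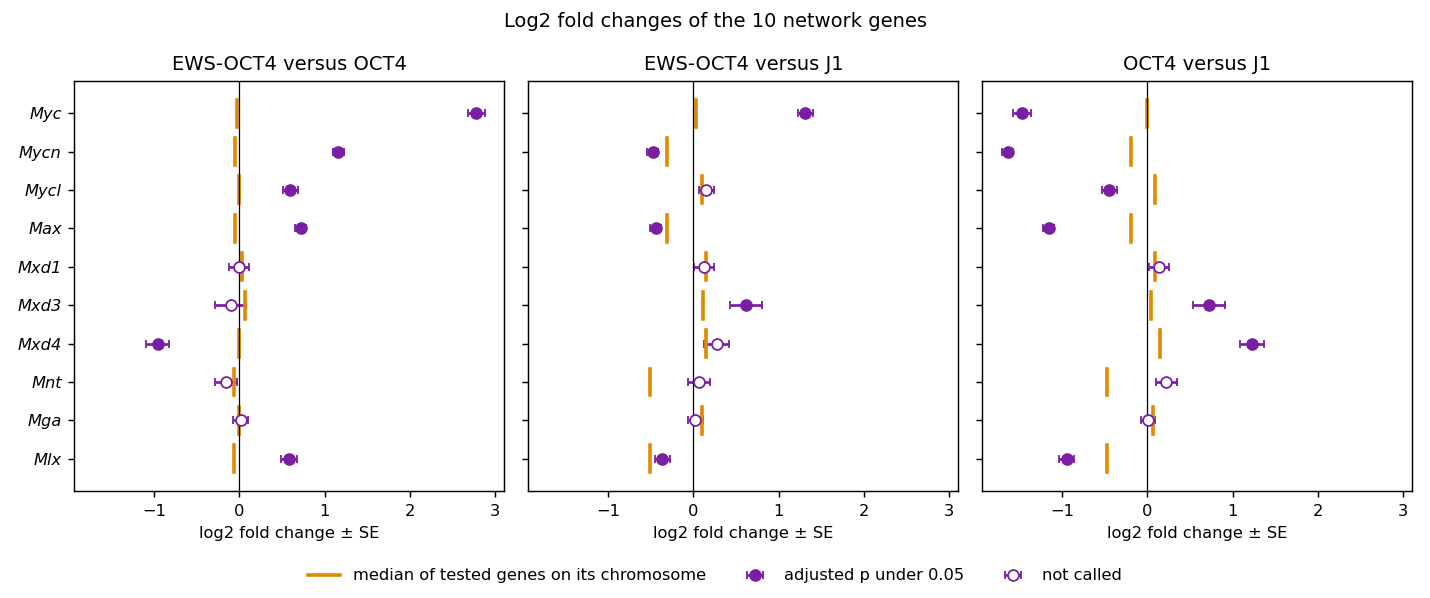
Log2 fold change ± SE (x axis) of each network gene in EWS-OCT4 over OCT4, EWS-OCT4 over J1 and OCT4 over J1; filled points have an adjusted p under 0.05, and orange ticks mark the median of the tested genes on that gene's chromosome. In EWS-OCT4 over J1, Mycn, Max and Mlx lie within 0.17 of their ticks, whereas Myc lies 1.29 above its own.

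Promoter sequence was available from RefSeq (GRCm38.p6) for 9 of the 10 members, and is shown because Max and Mlx had the same order of groups and MYC-MAX, MXD-MAX and MLX dimers bind the same E-box, CACGTG. Windows ran from 250 bases before to 50 bases after each start, and motifs were searched on both strands. CACGTG, which reads the same on both strands, occurred in the windows of 4 members, Max, Mlx, Mnt and Mxd4, and in 7.15% of all 32851 windows. Of these 4, Max and Mlx were lowest in OCT4 cells, Mxd4 was highest there and Mnt passed in no comparison. The E2F-type motif TTTGGCGC occurred in Mycn alone among the members, at 2 places, and in 0.514% of all windows, while TTTCCCGC, another E2F form, was in no member and in 1.07%. ATGCAAAT, the octamer bound by OCT4, and its core ATGCAA, which overlaps it, were in no member, and in 1.74% and 10.7% of all windows. CATTGT, a SOX motif, was in Mycl and 12.6% of all windows, TATAAA in Mycl and 13.6%, CCAAT in 3 members and 37.4%, and GGGCGG in 7 members and 35.7%. The stretches of 70 bases that hold the E-box or the E2F-type motif, in capitals, were as follows on the strand of each gene. They lie at chr12:76962239-76962308 (minus strand) for Max, chr11:101087220-101087289 (plus) for Mlx, chr11:74830774-74830843 (plus) for Mnt, chr5:34187881-34187950 (minus) for Mxd4 and chr12:12941967-12942036 (minus) for Mycn.
Max: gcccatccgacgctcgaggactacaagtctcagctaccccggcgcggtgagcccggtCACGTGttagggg
Mlx: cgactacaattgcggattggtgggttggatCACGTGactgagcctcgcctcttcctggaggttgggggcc
Mnt: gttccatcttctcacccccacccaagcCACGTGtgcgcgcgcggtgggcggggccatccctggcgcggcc
Mxd4: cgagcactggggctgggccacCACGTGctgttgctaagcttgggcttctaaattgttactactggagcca
Mycn: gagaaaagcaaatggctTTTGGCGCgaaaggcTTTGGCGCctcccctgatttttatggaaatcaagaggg

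Among 8730 other genes averaging 10 CPM or more, those with profiles most like the MYC genes were looked for. Likeness was the root mean square difference of log2 CPM, centred over the 9 libraries. Nearest to Mycn were Srl, a calcium-binding protein of muscle (0.0505), Odc1 (0.0587) and Rragb, a Rag GTPase of nutrient sensing (0.074). Odc1, the rate-limiting enzyme of polyamine synthesis and a textbook MYC target, had 454, 432 and 439 CPM in EWS-OCT4 cells and 218, 201 and 205 CPM in OCT4 cells, against 685, 637 and 615 CPM in J1. Its log2 fold changes, 1.09, -0.55 and -1.64 in EWS-OCT4 over OCT4, EWS-OCT4 over J1 and OCT4 over J1, stand beside 1.16, -0.48 and -1.64 for Mycn. Odc1 was picked for its likeness to Mycn in these same libraries, so this match follows from the choice. The shift of chromosome 12, where Mycn lies, is given above, and its part in the match was not tested. Nearest to Myc were Tgm1, a transglutaminase (0.164), Slc7a3, a transporter of cationic amino acids (0.21), and Halr1, a noncoding RNA (0.215), none as close as the neighbours of Mycn. Nearest to Mycl were Cul5, a scaffold of ubiquitin ligases (0.0404), Robo1, a guidance receptor (0.0468), and Patz1, a transcription factor (0.0499). The 9 libraries fall into 3 groups, so likeness here is mostly that of 3 group means.

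The genes that MYC proteins are known to activate were mostly lower in OCT4 cells than in either other group. OCT4 libraries also had the highest summed trophectoderm markers, whose part in the result was not tested. The mitochondrial share of counts was 16.3% to 17.1% in EWS-OCT4, 10.1% to 12.5% in OCT4 and 12.5% to 15.7% in J1 libraries. Gm26917, a single abundant transcript, had 17070 to 19084 CPM in EWS-OCT4, 36843 to 56806 CPM in OCT4 and 8148 to 11000 CPM in J1 libraries. With 13 mitochondrial genes and Gm26917 left out, the list's counts were the same in all 3 comparisons. That rerun only removes those rows, so the part of RNA composition or quality in the list's differences was not tested. The comparisons share libraries, so their counts are given side by side only. For this and the later lists, the shares of all tested genes were 31.9% higher and 34.6% lower in EWS-OCT4 over OCT4. They were 30.3% and 31.6% in EWS-OCT4 over J1, and 34.3% and 32.7% in OCT4 over J1. Of 35 genes of growth, ribosome biogenesis and metabolism, 27 were higher and 4 lower in EWS-OCT4 cells than in OCT4 cells, with a median log2 fold change of 0.62. Apex1, a DNA repair enzyme, rose by 1.41 (log2, SE 0.0801), Polr1b, a subunit of RNA polymerase I, by 1.22 (SE 0.0937), and Nop56, a core protein of box C/D snoRNPs, by 1.15 (SE 0.0763). Nop56 stood at 572, 569 and 586 CPM in EWS-OCT4 cells against 257, 249 and 274 CPM in OCT4 cells. Tert, the telomerase catalytic subunit (-0.51, SE 0.085), Eif4ebp1, a translation inhibitor (-0.39, SE 0.0908), and Cad, an enzyme of pyrimidine synthesis (-0.30, SE 0.0783), fell.

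Over J1, 4 of the same 35 genes were higher and 24 lower in OCT4 cells, with a median of -0.53. Odc1 (log2 fold change -1.64, SE 0.0688), Polr1b (-1.19, SE 0.0936) and Ccnd2, a cyclin (-1.71, SE 0.227, at 1.94 CPM in OCT4 and 6.34 CPM in J1 cells), fell. Tert (0.46, SE 0.0845) and the chaperonins Hspe1 (0.39, SE 0.0895) and Hspd1 (0.36, SE 0.0792) rose. In EWS-OCT4 cells 13 were higher and 10 lower than in J1, with a median of 0.03. Apex1 (0.88, SE 0.0782), the cyclin-dependent kinase Cdk4 (0.77, SE 0.065) and Nop58 (0.55, SE 0.0889), another box C/D protein, rose, and Ldha (-0.71, SE 0.0682), a glycolytic enzyme, and Tfrc (-0.66, SE 0.0805), the transferrin receptor, fell. That split was 7 higher and 11 lower when scaling left out chromosomes 8, 11, 12, X and Y, an alternative chosen after seeing the data.

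Most of the 12 genes listed here as repressed by MYC proteins ran the other way in the 2 comparisons that include OCT4 cells. The list was chosen by name. It includes Cdkn2a (log2 fold change -0.75 in EWS-OCT4 over OCT4), whose repression by MYC proteins was not checked here. The part of MYC proteins in the changes of this list and of the activated list was not tested. Of 12, 8 were lower and 2 higher in EWS-OCT4 cells than in OCT4 cells (median -0.93), and 9 were higher and 1 lower in OCT4 cells than in J1 (median 1.44). Over all tested genes, 34.6% were lower and 31.9% higher in the first comparison, and 34.3% higher and 32.7% lower in the second. The cell cycle inhibitor Cdkn1a had 24.3, 23.3 and 27.7 CPM in EWS-OCT4 cells and 102, 110 and 119 CPM in OCT4 cells, against 39.3, 43.97 and 38.3 CPM in J1. Cdkn2b, a related inhibitor (log2 fold change -2.16, SE 0.203), and Ndrg1, a stress and differentiation gene (-2.50, SE 0.0907), fell in EWS-OCT4 cells relative to OCT4 cells, while Hmox1, which encodes heme oxygenase, was higher by 0.21 (SE 0.0761). The higher count of 2 was 1 without EWS-OCT4 replicate 2 or without OCT4 replicate 1. Over J1 EWS-OCT4 cells had 4 higher and 3 lower (median 0.09): Cdkn1b, a further cell cycle inhibitor, rose by 1.57 (SE 0.109), and Ndrg2 (-1.76, SE 0.1), Ndrg1 (-1.07, SE 0.0955) and Cdkn1a (-0.69, SE 0.0866) fell. In OCT4 cells Cdkn2b (2.31, SE 0.205), Ddit3 (1.76, SE 0.158), a stress-induced factor, and Cdkn1b (1.73, SE 0.109) rose over J1 and Ndrg2 (-0.65, SE 0.093) fell. The lower count of 1 was 2 without J1 replicate 1 or without J1 replicate 3.

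**Figure D4:**
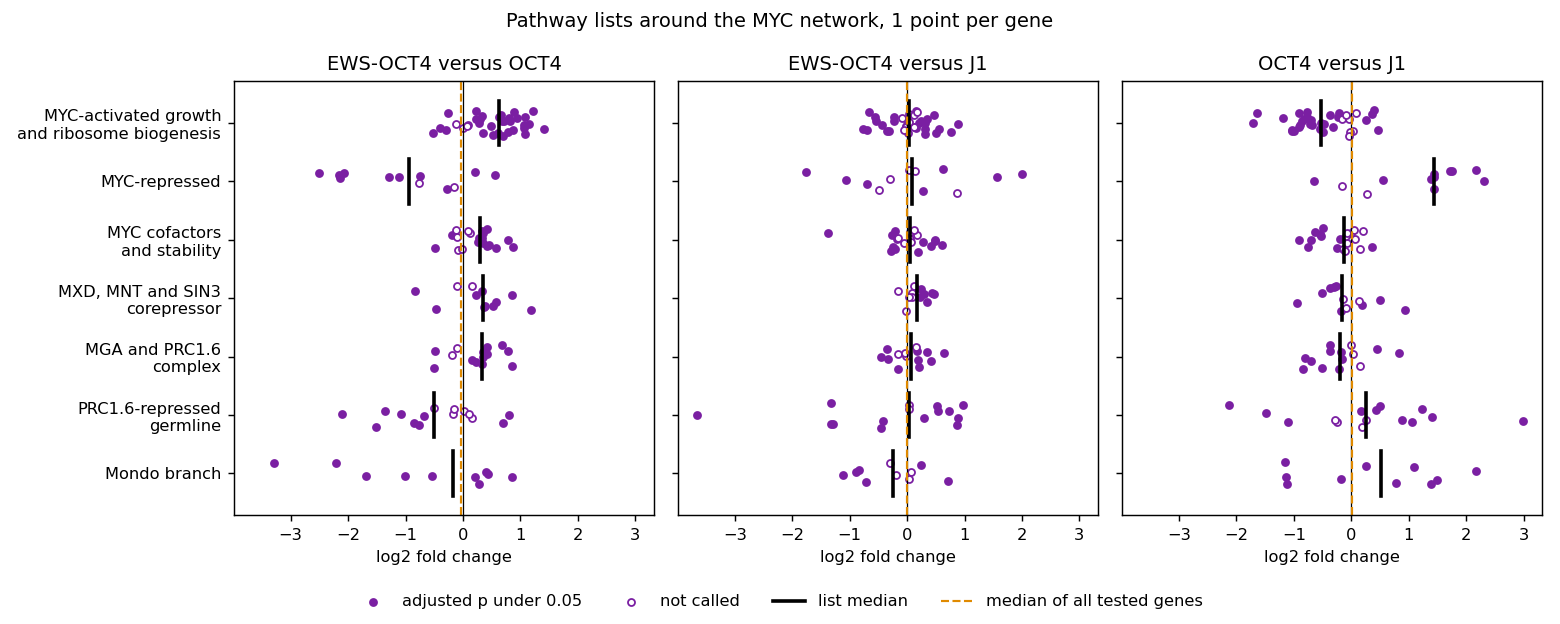
Log2 fold change (x axis) of each gene of 7 lists around the network, in EWS-OCT4 over OCT4, EWS-OCT4 over J1 and OCT4 over J1; filled points have an adjusted p under 0.05, black bars are list medians and the dashed line the median of all tested genes. The MYC-activated list has its median at 0.62, 0.03 and -0.53 and the MYC-repressed list at -0.93, 0.09 and 1.44 in these 3 comparisons.

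Several genes of the MLX branch differed by more than Mlx itself. Txnip, an inhibitor of glucose uptake induced by Mondo-MLX dimers, had 113, 111 and 110 CPM in EWS-OCT4 cells and 1118, 1059 and 1066 CPM in OCT4 cells, against 254, 230 and 236 CPM in J1. It was 9.72-fold lower in EWS-OCT4 cells than in OCT4 cells (log2 fold change -3.28, SE 0.0713, adjusted p = 6.05e-16) and 4.50-fold higher in OCT4 cells than in J1 (log2 fold change 2.17, SE 0.0679, adjusted p = 2.3e-14). Its relative Arrdc4 averaged 43.8 ± 3.27 CPM in EWS-OCT4 cells and 88.0 ± 1.77 CPM in OCT4 cells, against 41.5 ± 2.46 CPM in J1 (SD, n = 3). The dimer partners rose over J1 in OCT4 cells, Mlxipl (ChREBP) by 1.49 (log2, SE 0.0968) and Mlxip (MondoA) by 0.78 (SE 0.0727), where Mlx itself fell. Of the 10 genes of this branch, 5 were higher and 5 lower in EWS-OCT4 cells than in OCT4 cells, 2 higher and 4 lower in EWS-OCT4 cells than in J1, and 6 higher and 4 lower in OCT4 cells than in J1. In the same order, 66.5%, 61.9% and 67.0% of all tested genes were called in either direction. The lipogenic members went both ways: the desaturase Scd1 fell (-2.22, SE 0.0658) in EWS-OCT4 cells relative to OCT4 cells, while Acaca (0.41, SE 0.0633) and Fasn (0.28, SE 0.0754) rose.

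Among cofactors that act with MYC proteins or set their stability, more were higher than lower in EWS-OCT4 cells relative to OCT4 cells. Of 20, 12 were higher and 2 lower in EWS-OCT4 cells than in OCT4 cells (median 0.30), 6 and 7 in EWS-OCT4 cells over J1 (0.05), and 1 and 9 in OCT4 cells over J1 (-0.12). Among all tested genes, 66.5%, 61.9% and 67.0% were called in either direction, in the same order. Cip2a, an inhibitor of the phosphatase that destabilises MYC, rose by 0.88 (log2, SE 0.087) and Ruvbl1, a helicase of MYC-bound remodelling complexes, by 0.78 (SE 0.0708) in EWS-OCT4 cells relative to OCT4 cells. Usp28, a deubiquitinase that protects MYC, fell in both lines relative to J1, with log2 fold changes of -1.38 in EWS-OCT4 cells (SE 0.0919) and -0.90 in OCT4 cells (SE 0.0902). Fbxw7, the ubiquitin ligase receptor that marks MYC for degradation, rose in both, by 0.61 (SE 0.0792) and 0.36 (SE 0.0795). Leaving out 1 library changed some small counts: the 2 lower in EWS-OCT4 over OCT4 (Usp28 and Ep400) were 1 without any single stable-line library other than OCT4 replicate 3, the 7 lower in EWS-OCT4 over J1 were 4 without EWS-OCT4 replicate 1, and the 1 higher in OCT4 over J1 was 2 without J1 replicate 1 or without J1 replicate 2.

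Of 12 genes of the SIN3 and NCoR corepressors used by MXD proteins and MNT, 8 were higher and 2 lower in EWS-OCT4 cells than in OCT4 cells (median 0.35), 6 higher and the rest not called in EWS-OCT4 cells over J1 (0.17; 1 was lower without J1 replicate 1), and 3 higher and 6 lower in OCT4 cells than in J1 (-0.16). For these and the PRC1.6 genes below, 66.5%, 61.9% and 67.0% of all tested genes were called in either direction, in the same order. Sap30 rose by 1.19 (log2, SE 0.0839) and Hdac1 by 0.86 (SE 0.0643) in EWS-OCT4 cells relative to OCT4 cells, and Rbbp7 fell (-0.84, SE 0.0632). Rbbp7 is X-linked, and the median log2 fold change of X-linked genes was -0.51 in that comparison and 0.62 in OCT4 cells over J1, where Rbbp7 rose by 0.93 (SE 0.0633). Of 14 partners of MGA in PRC1.6, among them Hdac1, Hdac2 and Wdr5 of the lists above, 10 were higher and 2 lower in EWS-OCT4 cells than in OCT4 cells (median 0.34), 6 and 4 in EWS-OCT4 cells over J1 (0.07), and 2 and 9 in OCT4 cells over J1 (-0.19). L3mbtl2 (0.78, SE 0.0726) and Tfdp1 (0.68, SE 0.0642) rose in EWS-OCT4 cells relative to OCT4 cells, and Rybp fell (-0.49, SE 0.0752). Pcgf6, the subunit that defines PRC1.6, fell relative to J1, with log2 fold changes of -0.35 in EWS-OCT4 cells (SE 0.0802) and -0.70 in OCT4 cells (SE 0.0813). For EWS-OCT4 cells over J1, the higher count was 3 with upper-quartile scaling or with scaling that left out chromosomes 8, 11, 12, X and Y, and the lower count was 2 without EWS-OCT4 replicate 2 or without J1 replicate 3.

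Germline genes that this complex is known to silence had no common direction. Of 15, 2 were higher and 7 lower in EWS-OCT4 cells than in OCT4 cells (median -0.51), 7 and 6 in EWS-OCT4 cells over J1 (0.04), and 8 and 3 in OCT4 cells over J1 (0.25). The shares of all tested genes called in either direction were 66.5%, 61.9% and 67.0%, in the same order. Taf7l, an X-linked testis gene, rose by 3.00 (log2, SE 0.123, beside the X-linked median of 0.62) and Dazl, an RNA-binding germ cell protein, by 1.40 (SE 0.143) in OCT4 cells over J1. Meioc, a regulator of meiotic entry, fell to 10.3 CPM in EWS-OCT4 cells and 29.5 CPM in OCT4 cells, against 130 CPM in J1. The cohesin genes Smc1b (0.79, SE 0.105) and Stag3 (0.70, SE 0.0637) rose in EWS-OCT4 cells relative to OCT4 cells, where Taf7l (-2.11, SE 0.114), Meioc (-1.52, SE 0.118) and Dazl (-1.36, SE 0.144) fell.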

How the data were processed

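The tables that the authors deposited hold raw, whole-number counts by gene symbol, 1 per library. GRCm39, fastp, STAR, Salmon and GATK appear in the submitters' processing notes with neither version nor role, and the CORALL RNA-seq V2 kit appears in the labels' protocols. Annotation, strand setting and use of molecular identifiers: not given in the sources used here.

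Sample titles gave groups and replicate numbers. The members and lists were chosen with earlier results of these data known. edgeR 4.0.16 (R 4.3.3) fitted all 9 libraries as 3 groups after filterByExpr (minimum count 10, minimum total 15) and TMM scaling, using glmQLFit (robust) and glmQLFTest, with an adjusted p (Benjamini-Hochberg) under 0.05 as the call. SE was taken as the absolute log2 fold change over the root of the F statistic. The code was first tested on simulated data. The text names all members and, per list and direction, up to 3 of the largest called changes whose groups did not overlap, with at least 5 CPM in the higher group. Arrdc4, Mxi1, Psmc3ip and, in OCT4 over J1, Mlxip were added after their values were seen. Likeness left out predicted-gene and clone names. GENCODE M21, another build, gave lengths, overlaps and chromosomes (15065 tested symbols matched). Alternatives were RLE and upper-quartile scaling, no filter, 5 CPM in 3 libraries, DESeq2 1.42.0, limma-voom (limma 3.58.1), only the 6 libraries compared, a replicate block, 13 mitochondrial genes and Gm26917 left out, each library left out, other gene lengths, and, chosen after seeing the data, scaling without chromosomes 8, 11, 12, X and Y.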

Additional observations from a re-analysis of the deposited data

How the results depend on the processing

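No call was lost or turned among the 18 called member differences in 19 alternatives each, and the 1 call gained, Mnt in OCT4 over J1, is given above. Of the 12 uncalled member differences, 6 changed sign in some alternative, each with a main log2 fold change between -0.10 and 0.07. All 228 recomputed counts of genes or members past the threshold stayed within 1.5 times the main count, and when each library was left out in turn the counts of members did not change (5 higher and 1 lower in EWS-OCT4 over OCT4, 2 and 3 in EWS-OCT4 over J1, 2 and 5 in OCT4 over J1). Over all genes these runs gave 4914 to 5617 higher and 5262 to 6048 lower in EWS-OCT4 over OCT4, 4546 to 5083 and 4700 to 5240 in EWS-OCT4 over J1, and 5367 to 5720 and 5126 to 5548 in OCT4 over J1. Of 798 recomputed list counts, 32 moved by more than 1.5 times; those moved by leaving out 1 library stand beside their counts above. Among the other settings, some moved the 2 MYC-repressed genes higher in EWS-OCT4 over OCT4 to 1 (upper-quartile scaling, and scaling without 5 chromosomes) or 0 (minimum of 5 CPM). These genes are Thbs1 and Hmox1. Thbs1, at 4.76, 5.11 and 5.10 CPM in the EWS-OCT4 libraries and less in all others, does not meet that minimum. Why Hmox1 was no longer called there was not tested. Scaling without 5 chromosomes moved the 2 branch genes of MLX higher in EWS-OCT4 over J1 to 1. The lower cofactors in EWS-OCT4 over OCT4 went to 1 (RLE scaling, no filter), the higher cofactors in OCT4 over J1 to 2 (replicate block), the lower MYC-repressed genes in OCT4 over J1 to 2 (RLE scaling, replicate block, no mitochondrial genes and Gm26917, scaling without 5 chromosomes) and the lower corepressors in EWS-OCT4 over J1 to 1 (upper-quartile scaling, minimum of 5 CPM, scaling without 5 chromosomes). Same-numbered replicates did not deviate together (correlations from 0 to 0.0737), so the numbers were not taken as pairs; with the replicate block 3 members rather than 2 were higher in OCT4 over J1, and 5419 and 5827 genes were higher and lower in EWS-OCT4 over OCT4. No scaling moved the median of all genes by over 0.1. Mxd1, Mxd3 and Mxd4 rest on 260 to 727 counts per group, fewer than most members, which limits their precision.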
